A study of Mus musculus with 34 samples.

Results

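Malat1, Neat1, Gas5, Snhg1, Snhg3 and Snhg12 are 6 mouse genes for long noncoding RNAs. Malat1 and Neat1 make RNAs of nuclear bodies, and the other 4 carry small nucleolar RNAs (snoRNAs) in their introns. The genes were chosen by name, and all 6 were found among the 49554 genes that the RefSeq table for GRCm38.p6 places on the autosomes and X, 12697 of which are long noncoding RNA genes. For each gene the 1 kb bins overlapping its annotated span were used along with 10 kb on either side. This gave 164 bins of the 2631630 analysed, with 0 bins shared between genes.

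The libraries were made by mtChIL-seq from C2C12 cells, an established line of mouse myoblasts, the precursors of muscle fibres. In this assay, antibodies bound to fixed cells carry DNA probes, a transposase inserts near each target, and the tagged fragments are copied into RNA before sequencing, which lets a pair of targets be read from the same cells. Histone H3 trimethylated on lysine 4 (H3K4me3) and the DNA-binding protein CTCF were read together from 1000 and from 10000 cells. Histone H3 acetylated on lysine 27 (H3K27ac) and the form of RNA polymerase II that carries phosphate on serine 2 (Pol2S2P) were read together from 100 and from 1000 cells. Each of these 8 dual groups had 3 libraries. CTCF alone from 10000 cells and Pol2S2P alone from 1000 cells, the single stains, had 2 libraries each. The labels give no genotype or treatment that differs between the 10 groups. They do not tie replicates to separate cultures, so p-values speak of the spread between libraries, which may be technical. A level in a bulk library is a mean over cells: fewer cells carrying a target and less of it per cell cannot be told apart.

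H3K4me3 marks the start of active genes, H3K27ac marks active promoters and enhancers, and serine 2 phosphorylation marks polymerase that is elongating towards the end of a gene. CTCF binds a defined DNA motif and holds chromatin loops. Malat1 RNA collects in nuclear speckles and is cut near its end to release a small tRNA-like RNA, and the long form of Neat1 RNA is the scaffold of paraspeckles. In snoRNA host genes the introns are the product: the snoRNAs cut from them guide the chemical modification of ribosomal RNA, and the spliced host RNA is often short-lived. Proliferating cells, such as myoblasts in culture, transcribe such hosts together with the genes of ribosome production.

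Malat1 lies on chromosome 19 at 5795690-5802672, on the minus strand, and spans 6983 bases. Neat1 lies near it at 5824708-5845480 and spans 20773 bases, and its strand is not given in the tables used here. Snhg1, on the plus strand, is on the same chromosome at 8723487-8726326, with 8 snoRNA genes in its span, and Slc3a2, an amino acid transporter subunit, starts or ends 118 bp away. Gas5, on the plus strand of chromosome 1 at 161034601-161038539, holds 8 snoRNA entries and overlaps Zbtb37. Snhg3 and Snhg12 are close together on chromosome 4, Snhg3 on the minus strand at 132351933-132353686 with Snora73a and Snora73b, and Snhg12 on the plus strand at 132308678-132311024 with Snora16a, Snora44, Snora61 and Snord99. The bin counts hold no strand, so signal where Gas5 overlaps other genes cannot be divided between them.

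Promoters are shown because the H3K4me3 described further on covers them, and because the bin of each annotated start holds its promoter, whole except at Snhg12, where it reaches into the bin before. They run from 250 bases before to 50 bases after the annotated start, come from RefSeq (GRCm38.p6), and are printed 5′ to 3′ on the gene's own strand. The table held entries for 5 of the 6 genes, Neat1 being the one without, and Gas5 had 2 starts. Capitals mark matches on either strand to TATAAA or to TATATA, forms of the TATA box, and to TGACGT, the core of the cAMP response element. The level after each name below is H3K4me3 at 10000 cells in the start bin, as a multiple of the genome mean per bin.
Malat1, chr19:5802623-5802922, minus strand, 50.3: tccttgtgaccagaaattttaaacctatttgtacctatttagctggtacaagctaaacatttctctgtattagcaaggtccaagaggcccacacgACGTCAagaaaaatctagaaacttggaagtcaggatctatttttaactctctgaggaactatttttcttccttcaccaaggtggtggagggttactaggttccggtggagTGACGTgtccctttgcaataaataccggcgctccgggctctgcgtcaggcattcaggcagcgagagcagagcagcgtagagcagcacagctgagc
Snhg1, chr19:8723237-8723536, plus strand, 92.9: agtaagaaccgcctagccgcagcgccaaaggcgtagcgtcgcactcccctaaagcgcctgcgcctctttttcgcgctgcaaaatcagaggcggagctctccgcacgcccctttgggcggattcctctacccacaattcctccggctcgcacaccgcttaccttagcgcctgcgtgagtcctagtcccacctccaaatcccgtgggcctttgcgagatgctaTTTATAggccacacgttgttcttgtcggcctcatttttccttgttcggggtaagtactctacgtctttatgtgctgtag
Gas5, the start at 161035166, chr1:161034916-161035215, plus strand, 112.6: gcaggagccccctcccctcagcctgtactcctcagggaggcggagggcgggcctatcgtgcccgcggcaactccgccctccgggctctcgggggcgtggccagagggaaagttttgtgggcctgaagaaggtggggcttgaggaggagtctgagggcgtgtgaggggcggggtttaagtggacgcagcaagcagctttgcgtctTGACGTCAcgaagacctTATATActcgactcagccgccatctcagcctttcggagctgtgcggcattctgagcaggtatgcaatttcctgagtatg
Snhg3, chr4:132353637-132353936, minus strand, 43.9: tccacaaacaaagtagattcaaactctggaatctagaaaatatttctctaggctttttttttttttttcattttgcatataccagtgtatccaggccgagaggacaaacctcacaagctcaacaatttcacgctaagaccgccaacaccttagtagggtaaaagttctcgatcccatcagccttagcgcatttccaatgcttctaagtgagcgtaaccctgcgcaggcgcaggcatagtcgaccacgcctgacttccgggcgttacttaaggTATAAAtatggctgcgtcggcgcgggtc
Snhg12, chr4:132308428-132308727, plus strand, 74.9: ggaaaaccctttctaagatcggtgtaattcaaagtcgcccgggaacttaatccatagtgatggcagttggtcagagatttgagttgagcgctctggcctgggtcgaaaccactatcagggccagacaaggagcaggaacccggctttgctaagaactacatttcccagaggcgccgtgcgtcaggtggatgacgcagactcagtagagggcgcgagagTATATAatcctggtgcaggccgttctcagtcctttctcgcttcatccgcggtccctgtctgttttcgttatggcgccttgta
A TATATA match began 29 bases before the Gas5 start shown and 32 bases before that of Snhg12. In Snhg1 a TATAAA match lay 29 bases before the start on the opposite strand, and in Snhg3 the match was 22 bases past it. TGACGT began 45 bases before the Malat1 start, with a match on the opposite strand at 155 bases. In Gas5 it began at 46 bases and overlapped an opposite-strand match at 44 bases. Over 32851 promoters of the same length, 13.6% held TATAAA, 5.67% TATATA and 7.51% TGACGT on either strand. The other Gas5 start, at 161034601, lies in the same 1 kb bin. Its promoter had 73.7% G and C, 33 CpG pairs, 5 matches to GGGCGG (the GC box, in 35.7% of promoters), 1 to AGGTGGC (in 6.15%) and 2 to AGGGGGC (in 10.6%), the last pair being short forms of the CTCF core. The promoters printed had 47.0% G and C with 10 CpG in Malat1, 56.7% with 25 in Snhg1, 62.0% with 19 in Gas5, 46.0% with 16 in Snhg3 and 53.0% with 18 in Snhg12, against medians of 52.7% and 7 over all promoters.

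Library size, the counts on the autosomes and X, ranged from 719766 to 6653298 over the 28 libraries. Over 10 myoblast markers the median level per group was 3.25 to 7.07 times the genome mean, and over lists for muscle fibre, blood, liver and neuron the medians were 0.379 to 1.16. Myf5, a myoblast regulator, had 35.1 and 38.8 times the genome mean of H3K4me3 at 1000 and 10000 cells, but Myod1, another, had 0.166 and 1.16.

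All levels below are per length: the mean count per 1 kb bin over a gene's span, divided by the mean count per bin of the same library. The median gene had 0.754 to 1.02 times the genome mean, depending on the group. Malat1 stood at 60.6, 57.0 and 62.6 times the genome mean in the 3 H3K4me3 libraries from 10000 cells and at 59.9, 59.9 and 54.3 in those from 1000. Neat1 stood at 15.3, 14.5 and 17.4 and at 17.3, 12.5 and 12.8 in the same libraries. The spans of these RNAs of nuclear bodies thus carried unequal H3K4me3, with Neat1 below Malat1 in 6 of 6 libraries.

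Among the snoRNA hosts, Gas5 had H3K4me3 levels of 70.9, 72.5 and 81.0 times the genome mean at 10000 cells, and 78.2, 65.1 and 84.5 at 1000. Snhg1 had 78.9, 71.3 and 58.1, then 71.3, 70.4 and 55.0. These were the highest means of the 6 genes at both cell numbers, and their libraries overlapped. Snhg3, whose snoRNAs act in the cutting of ribosomal RNA, had 54.5, 47.1 and 59.9 at 10000 cells and 51.2, 60.6 and 68.3 at 1000. Snhg12 had 45.2, 45.8 and 57.5, then 42.7, 41.3 and 59.1. At 10000 cells the order of means was Gas5, Snhg1, Malat1, Snhg3, Snhg12 and Neat1. Each pair of neighbours overlapped between libraries except Snhg12 and Neat1.

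CTCF, read from the same cells, was lower over all 6 spans. Malat1 had 6.11, 7.91 and 7.44 times the genome mean in the dual libraries from 10000 cells, 5.07, 6.15 and 4.96 in those from 1000, and 4.21 and 4.75 in the single stain. Neat1 had 2.39, 3.72 and 3.24, then 3.23, 2.49 and 2.31, and 2.41 and 2.66 in the single stain. Over the 4 snoRNA hosts the 32 values from these 8 libraries ran from 3.03 to 10.0. At 10000 cells in the dual stain Neat1 lay below the other 5 genes in all 3 libraries.

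**Figure D1:**
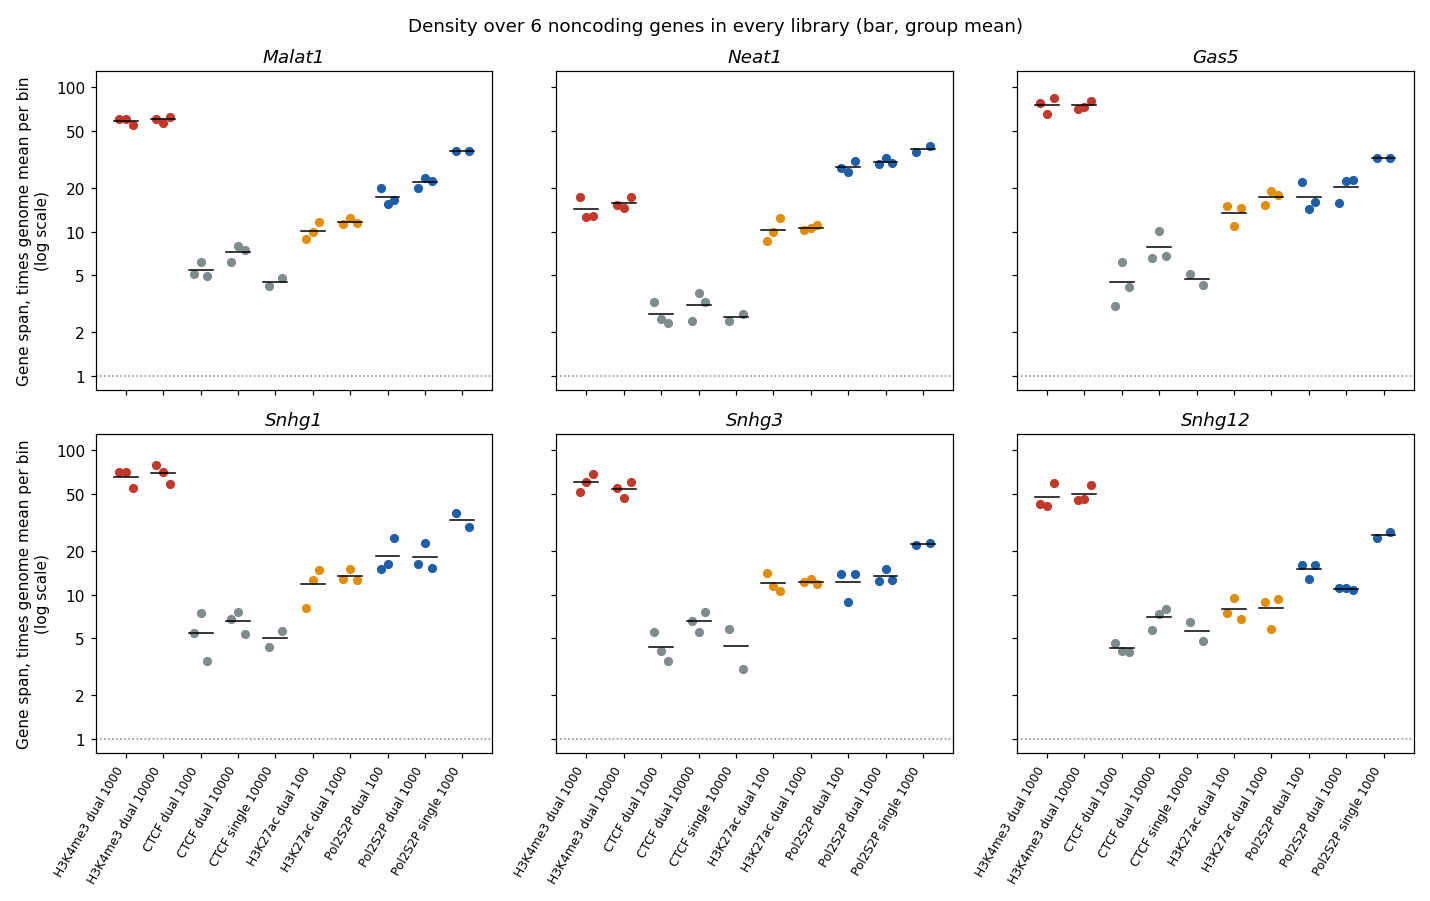
Level over each gene span, as a multiple of the genome mean per 1 kb bin (log axis), for 6 genes in 10 groups; points are libraries and bars are group means. H3K4me3 is the highest target over all genes but Neat1, where Pol2S2P reaches 35.9 and 39.1 in the single stain.

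Elongating polymerase gave another order. Neat1 had Pol2S2P levels of 29.2, 32.4 and 29.7 times the genome mean in the dual libraries from 1000 cells, 27.8, 26.0 and 30.9 from 100 cells, and 35.9 and 39.1 in the single stain. Malat1 had 20.03, 23.6 and 22.2, then 19.99, 15.5 and 16.5, then 36.1 and 35.9. In both dual groups every Neat1 library lay above every library of the other 5 genes, and in the single stain Neat1 overlapped Malat1 and Snhg1. Gas5 had 15.9, 22.5 and 22.9 in the dual libraries from 1000 cells and 32.4 in each single-stain library, and Snhg1 had 16.4, 22.9 and 15.2 against 36.9 and 29.4. Snhg3 had 12.5, 15.0 and 12.7 against 22.1 and 22.7, and Snhg12 had 11.1, 11.1 and 10.8 against 24.9 and 27.3. From 100 cells Gas5 had 22.0, 14.4 and 15.9, Snhg1 15.0, 16.3 and 24.6, Snhg3 13.9, 8.91 and 13.97, and Snhg12 16.1, 12.8 and 16.1. The lowest mean of the 6 was that of Snhg12 in the dual stain at 1000 cells and that of Snhg3 at 100 cells and in the single stain.

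H3K27ac gave an order of its own. At 1000 cells Malat1 had 11.2, 12.4 and 11.5 times the genome mean, and Neat1 had 10.2, 10.5 and 11.1. Gas5 was highest, with 15.3, 19.2 and 17.9, and Snhg12 lowest, with 8.94, 5.81 and 9.36. Snhg1 (12.8, 15.0 and 12.7) and Snhg3 (12.3, 12.8 and 11.8) lay between them. At 100 cells the libraries of Gas5 (15.0, 10.9 and 14.5) overlapped those of Malat1, Neat1, Snhg1 and Snhg3.

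H3K4me3 was set against CTCF, the other target of the same cells, over each span. H3K4me3 was higher at all 6 genes at 10000 cells, and the libraries of the 2 targets did not overlap. The differences were 3.06 ± 0.09 (log2, SE) at Malat1, or 8.35-fold, 2.32 ± 0.10 at Neat1, 3.24 ± 0.11 at Gas5, 3.38 ± 0.13 at Snhg1, or 10.4-fold, 3.03 ± 0.16 at Snhg3 and 2.82 ± 0.16 at Snhg12. Under edgeR's quasi-likelihood test with Benjamini-Hochberg adjustment at 0.05, 41.7% of 24796 genes were called higher and 31% lower (37.4% and 39.2% with TMM scaling), so calls were common. The adjusted p was 3.43e-87 at Malat1. At 1000 cells the differences were 3.41 ± 0.14 at Malat1, 2.40 ± 0.15 at Neat1, 4.01 ± 0.17 at Gas5, or 16.2-fold, 3.57 ± 0.19 at Snhg1, 3.84 ± 0.24 at Snhg3 and 3.49 ± 0.26 at Snhg12. All 6 were again called higher without overlap, against 41.6% of 20752 genes higher and 25.7% lower (34.9% and 35.3% with TMM). Neat1 had the smallest of the 6 differences at both cell numbers.

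**Figure D2:**
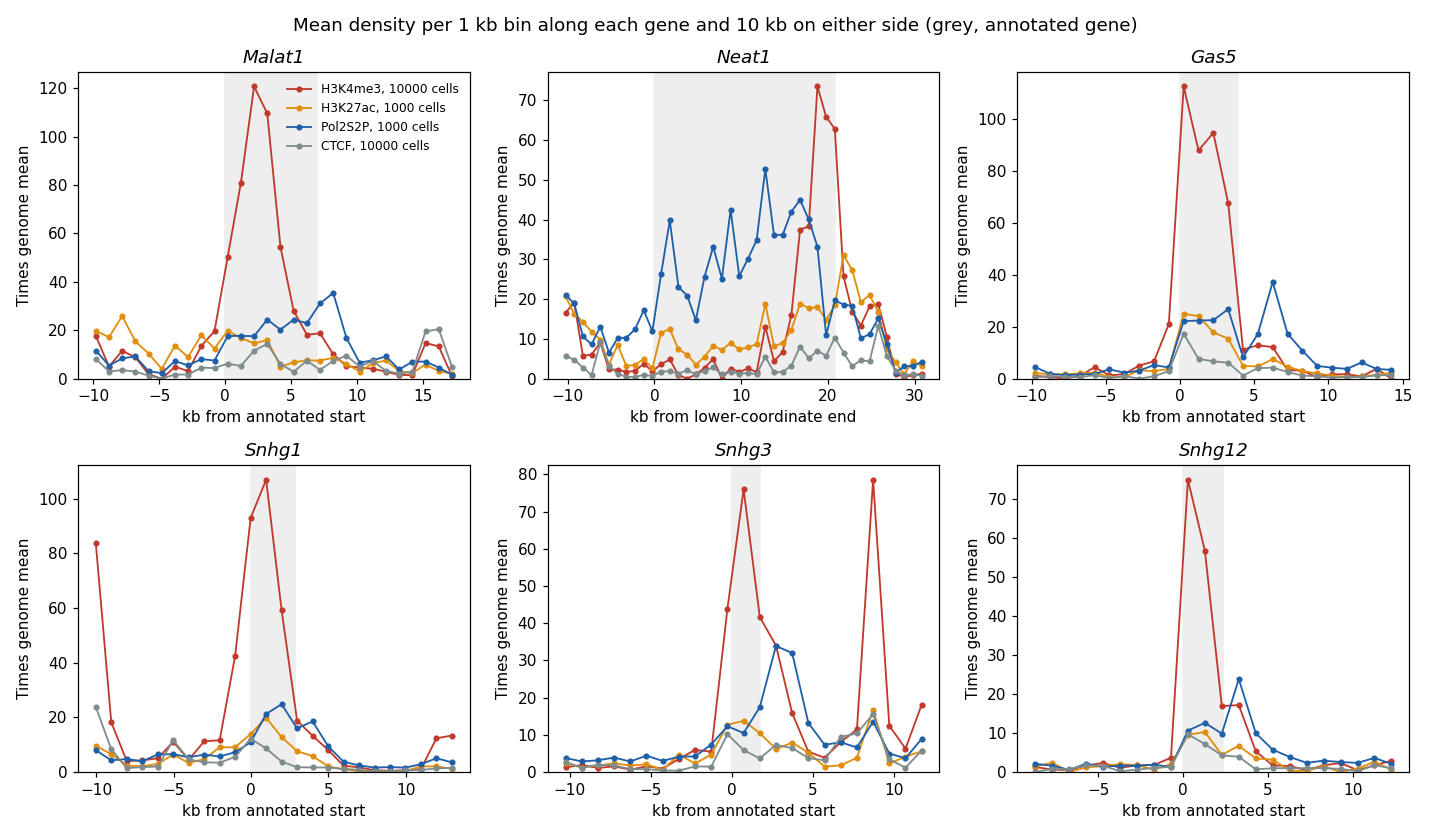
Mean level per 1 kb bin, as a multiple of the genome mean, against distance from the annotated start (for Neat1, from the lower-coordinate end) in kb, for H3K4me3 and CTCF at 10000 cells and H3K27ac and Pol2S2P at 1000 cells in the dual stains; grey marks the gene. In each gene with a known strand the highest H3K4me3 bin of the span is among the first 3. At Snhg3 and Snhg12 those 3 bins are the whole span. Pol2S2P extends over the body and past the end.

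At Malat1 the highest H3K4me3 bin was 19:5799981-5800980, centred 2.2 kb past the annotated start, with 65, 87 and 69 reads in the libraries from 10000 cells. Its level averaged 120.7 times the genome mean, against 50.3 in the start bin and 18.7 in the bin at the far end of the gene. At 1000 cells the same bin had 27, 57 and 39 reads. The H3K4me3 maximum of Malat1 was therefore inside the transcribed unit and not in the bin of the promoter printed above.

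Neat1's H3K4me3 was highest in the 5 span bins at its higher-coordinate end, which averaged 37.5, 38.3, 73.5, 65.9 and 62.8 times the genome mean at 10000 cells. The highest, 19:5842981-5843980, had 48, 44 and 40 reads. Over the remaining 17 span bins the levels ran from 0 to 16.03. The low span mean of Neat1 was thus a mean over a marked end and a long body with lower H3K4me3. The flank beyond that end held Frmd8, whose span comes within 5494 bp of Neat1.

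The snoRNA hosts are short, and H3K4me3 covered most of each. Gas5 had 112.6, 88.0, 94.8, 67.6 and 11.2 times the genome mean over its 5 bins at 10000 cells, from the start onwards. Snhg1 had 92.9 in the start bin, 107.0 in the next, and then 59.2 and 18.8. Snhg12 fell from 74.9 to 56.7 and 16.9 over 3 bins, while the 3 bins of Snhg3 held 43.9 in the start bin, 76.0 in the middle and 41.7. Peaks of similar height stood in the flanks: 83.7 in the bin at 19:8712966-8713965 inside Slc3a2, near Snhg1, and 78.6 at 4:132344461-132345460 at Rcc1, a chromatin-bound exchange factor gene near Snhg3.

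The flanks give a local background for these spans. At 10000 cells the H3K4me3 level over the span was 19.1 ± 2.8 times that of the flanking 10 kb on each side at Snhg12 (mean ± SD, n = 3), 18.2 ± 2.6 at Gas5 and 8.41 ± 1.1 at Malat1. It was 5.64 ± 1.3 at Snhg1 and 5.01 ± 1.0 at Snhg3, whose flanks hold the Slc3a2 and Rcc1 peaks, and 1.80 ± 0.08 at Neat1. For Pol2S2P at 1000 cells the ratios lay closer together, from 1.56 ± 0.15 at Snhg3 to 3.38 ± 0.88 at Snhg1. H3K27ac over Neat1 did not stand above its flanks at 1000 cells, with a ratio of 0.917 ± 0.07 and 0 of 3 libraries higher over the span. Malat1 was near its flanks too, at 1.22 ± 0.11 with 3 of 3 libraries higher, whereas Gas5 reached 7.15 ± 1.2. At 100 cells the H3K27ac ratios were 0.935 ± 0.18 at Neat1 and 0.969 ± 0.06 at Malat1, each with 1 of 3 libraries higher, and 6.01 ± 1.8 at Gas5. In the dual stain from 10000 cells the CTCF ratio was 0.868 ± 0.17 at Neat1, 1.27 ± 0.22 at Malat1, 5.90 ± 1.5 at Gas5 and 6.96 ± 1.9 at Snhg12. All 4 were lower at 1000 cells and in the single stain. There Malat1 had 0.958 and 0.858, with the span higher in 1 of 3 and 0 of 2 libraries, and Neat1 had 0.704 and 0.631. Gas5 had 3.31 and 3.70, and Snhg12 had 3.63 and 4.19.

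H3K4me3 minus CTCF was also fitted bin by bin. At 10000 cells 58 of the 164 bins passed the filter on low counts, and 51 were called higher for H3K4me3 and 0 lower, against 53.9% and 29.4% of all 44023 bins tested. With TMM 42 were higher and 4 lower, against 41.3% and 41.2% of all bins, and with DESeq2 32 and 4, against 28.6% and 40%. Bins that pass on the strength of 1 target tend to differ, so these counts are descriptions. At 1000 cells 32 bins passed, with 30 higher and 1 lower, against 71.9% and 19.5% of 16589. With TMM 22 were higher and 2 lower, against 25.1% and 32.1%. The bin called lower there was 19:5785981-5786980, past the end of Malat1, at −1.14 ± 0.45 with an adjusted p of 0.0161.

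That bin and its neighbour held the highest CTCF of the Malat1 window. The reads at 19:5785981-5786980 were 37, 34 and 38 in the dual libraries from 10000 cells, 20, 20 and 26 from 1000 cells, and 29 and 47 in the single stain. These averaged 20.4, 21.3 and 16.7 times the genome mean, at 16.2 kb past the Malat1 start. The neighbouring bin, 19:5786981-5787980, averaged 19.5, 18.4 and 21.8. The mean over the 8 bins of the Malat1 span stayed at or below 7.91 in every CTCF library. Single bins of the span could be higher, as in the bin described below where dual and single stains are compared. H3K4me3 at 10000 cells averaged 13.3 and 14.7 in the same 2 bins.

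Other CTCF maxima fell in different places. For Snhg1 it was the bin inside Slc3a2, with 23.8 times the genome mean in the dual and 19.7 in the single stain from 10000 cells. For Snhg3 it was the Rcc1 bin, with 15.6 and 15.3, and for Neat1 the bin 19:5849981-5850980 over Frmd8, with 13.3 and 13.8. In these 3 windows the CTCF maximum lay outside the long noncoding RNA gene, in bins where H3K4me3 averaged 83.7, 78.6 and 18.8 times the genome mean. In Gas5 it was the start bin, with 25, 46 and 24 reads in the dual libraries and 27 and 23 in the single stain from 10000 cells, or 17.3 and 11.4 times the genome mean. That bin holds both Gas5 promoters. Snhg12 had no CTCF bin above 9.6 in its span at 10000 cells in the dual stain.

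H3K27ac was set against Pol2S2P in the cells read for both. Pol2S2P was higher at Malat1 and Neat1 at both cell numbers. At 1000 cells the H3K27ac minus Pol2S2P difference was −0.90 ± 0.12 at Malat1 (adjusted p = 2.39e-13, edgeR's quasi-likelihood test), Pol2S2P being 1.87-fold higher. At Neat1 it was −1.52 ± 0.07 (adjusted p = 1.35e-96, edgeR), or 2.87-fold. Neither gene's libraries overlapped between the targets. Over all 23854 genes 13% were called higher and 27.1% lower (19.4% and 17% with TMM). At 100 cells the differences were −0.78 ± 0.22 at Malat1 (adjusted p = 0.00244) and −1.46 ± 0.12 at Neat1 (adjusted p = 2.53e-21, both by edgeR), with 11.4% of 16443 genes higher and 20.9% lower (16.3% and 12.6% with TMM). The Malat1 call at 100 cells was lost with DESeq2 (adjusted p = 0.0919), while that of Neat1 was kept.

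Of the snoRNA hosts, Gas5 and Snhg3 were called at neither cell number in the main fit. Gas5 differed by −0.22 ± 0.14 at 1000 cells (95% interval −0.49 to 0.05, adjusted p = 0.192 by edgeR) and by −0.38 ± 0.25 at 100 cells (adjusted p = 0.256). Snhg3 gave −0.12 ± 0.21 (adjusted p = 0.691, edgeR) and −0.01 ± 0.35 (adjusted p = 0.989). Snhg1 was called at 1000 cells, at −0.42 ± 0.17 with an adjusted p of 0.0297 by edgeR, but not with TMM (−0.23, adjusted p = 0.301) or DESeq2 (−0.24, adjusted p = 0.465). That call held in 6 of 12 alternatives, and with 1 library left out its adjusted p by edgeR rose to as much as 0.369. At 100 cells Snhg1 gave −0.64 ± 0.28 (adjusted p = 0.0675, edgeR), and −0.65 with an adjusted p of 0.0426 when the replicate number was kept as a block. Snhg12 gave −0.45 ± 0.24 at 1000 cells (95% interval −0.92 to 0.02, adjusted p = 0.122, edgeR). At 100 cells it was called at −0.91 ± 0.37 (adjusted p = 0.0476), a call lost with TMM, with DESeq2, without the filter and without any 1 of the 6 libraries. These calls depend on the span used. With spans widened by 1 kb all 4 hosts were called lower for H3K27ac at 1000 cells, and all but Snhg3 at 100. Snhg3 then gave −0.77 (adjusted p = 4.6e-05, edgeR) and Snhg12 −0.82 (adjusted p = 0.000214, edgeR) at 1000 cells. Differences between genes in this contrast were not tested.

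**Figure D3:**
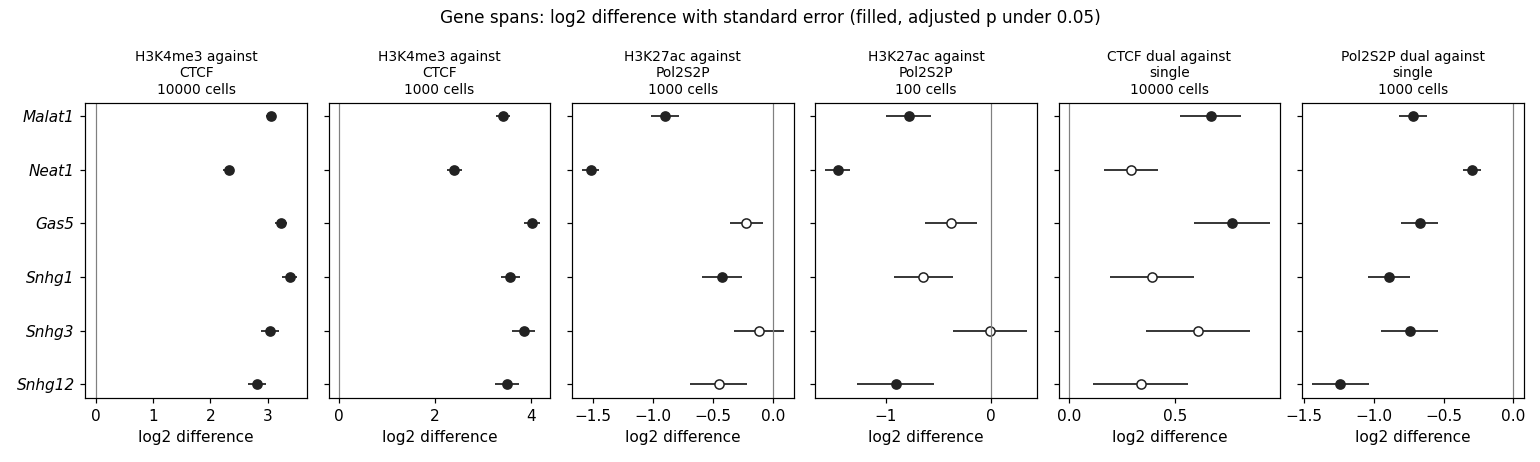
Difference between 2 groups over each gene span (log2, with SE) for 6 comparisons and 6 genes, from edgeR's quasi-likelihood fit; filled points passed an adjusted p of 0.05. H3K4me3 exceeds CTCF at all 6 genes, and H3K27ac falls below Pol2S2P by 0.90 at Malat1 and 1.52 at Neat1 at 1000 cells.

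Along Neat1 the polymerase was broad. Its highest Pol2S2P bin by the mean over libraries was 19:5836981-5837980, in the body of the gene, with 83, 61 and 60 reads from 1000 cells, 46, 36 and 39 from 100 cells, and 65 and 38 in the single stain. In the single stain alone, 19:5840981-5841980 was higher, at 80.7 times the genome mean. All 22 span bins held at least 5 times the genome mean in all 3 Pol2S2P groups, and in the window such bins formed an unbroken run of 38. H3K4me3 reached that level in 8 of the 22 span bins at 10000 cells and in 12 at 1000.

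The per-bin differences between H3K27ac and Pol2S2P followed this shape. At 1000 cells 20 of the 22 Neat1 span bins were called lower for H3K27ac, and the remaining pair, at the higher-coordinate end, was not called (0.44 ± 0.31 and −0.09 ± 0.27). Just beyond that end 4 flank bins were called higher for H3K27ac, by 0.58 to 0.91. Malat1 had 5 of 8 span bins lower, all from 19:5794981 to 19:5799980 in the part towards the gene's end, and the 3 bins at its start were not called. Its flank had 2 bins lower past the end, at −2.01 ± 0.28 in the nearer of them, and 6 higher upstream of the start, up to 1.64 ± 0.38 at 19:5810981-5811980.

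**Figure D4:**
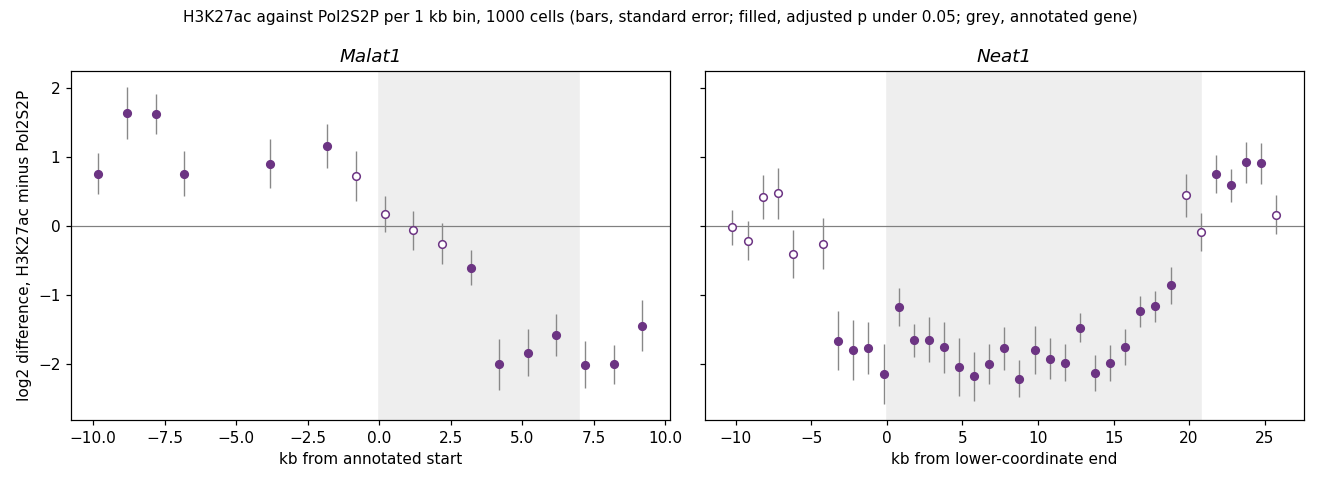
H3K27ac minus Pol2S2P (log2, with SE) in each tested 1 kb bin of the Malat1 and Neat1 windows at 1000 cells, against distance in kb. Values lie below 0 across the Neat1 body and the later bins of Malat1 and above 0 upstream of the Malat1 start; with TMM scaling 0 bins stay called higher.

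Over all 6 windows 77 bins were tested at 1000 cells, and 10 were called higher and 41 lower, against 55.9% and 9.59% of 18663 bins. The scaling moves this split: with TMM 0 were higher and 56 lower, against 10.3% and 19.1%. With DESeq2 0 were higher and 51 lower, against 697 and 2832 of the same 18663 bins. TMM moved the median of all bins from 0.97 to 0.05 (log2), so the bins called higher above hold only for scaling to library size. In the 4 host windows the called bins were all lower. They were 4 of 7 tested in the Gas5 window, 3 of 8 around Snhg1, 3 of 6 around Snhg3 and 1 of 3 at Snhg12. Examples past the genes' ends were −2.45 ± 0.29 at 4:132350461-132351460 beyond Snhg3 and −1.81 ± 0.32 at 4:132311461-132312460 in Trnau1ap beyond Snhg12. At 100 cells 22 bins were tested, with 1 higher and 12 lower, against 70.8% and 6.55% of 1772 bins. With TMM 0 were higher and 19 lower, against 3.78% and 13.8%.

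Elongating polymerase was compared on the 2 sides of each gene with a known strand, using the 3 bins before the start and the 3 past the end, a measure added after the values had been seen. Pol2S2P was higher past the end in 8 of 8 libraries for all 5 genes. For Malat1 the upstream levels at 1000 cells were 6.98, 6.66 and 7.38 times the genome mean and the downstream ones 19.01, 21.7 and 18.2. Gas5 had 5.05, 3.61 and 3.95 upstream against 26.5, 21.9 and 23.5, and Snhg3 had 4.33, 4.72 and 6.59 against 25.0, 30.3 and 23.7. At Snhg12 the contrast was 1.68, 1.94 and 1.05 against 10.6, 12.2 and 16.6. Snhg1 had the smallest, with 7.94, 3.61 and 7.64 against 10.6, 9.72 and 11.3. The single stain gave the same direction in 2 of 2 libraries for each gene, with means of 11.1 and 32.2 at Malat1 and 4.09 and 52.5 at Gas5.

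Most of the Pol2S2P maxima of these windows lay on that side too. The bin holding the end of Malat1, 19:5794981-5795980, had 29, 44 and 45 reads in the dual libraries from 1000 cells, 30, 9 and 11 from 100 cells, and 83 and 61 in the single stain. Past the end of Snhg3, 4:132350461-132351460 had 43, 43 and 44, then 20, 22 and 9, then 62 and 50. Snhg12 had its highest level in the bin after the gene, 4:132311461-132312460, with 28, 32 and 31 reads from 1000 cells, and 81 and 44 in the single stain. Snhg1 differed in the dual stain, where its maxima were inside the span (24.8 times the genome mean at 1000 cells and 25.9 at 100), while in the single stain the bin past its end was highest, at 48.0.

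The neighbours bear on these levels. The downstream bins of Gas5 overlap other annotation and those of Snhg12 reach Trnau1ap, which starts or ends 739 bp away. The upstream bins of Snhg1 lie within Slc3a2, those of Gas5 lie within Zbtb37, and those of Snhg3 reach Phactr4. The part of all these neighbours in the Pol2S2P signal was not tested. CTCF was also higher downstream in 8 of 8 libraries at Malat1, Gas5 and Snhg3 and in 6 of 8 at Snhg12, but in 0 of 8 at Snhg1. H3K27ac was higher downstream in 0 of 6 libraries for Malat1 and Snhg1, 6 of 6 for Gas5 and Snhg12 and 5 of 6 for Snhg3. H3K4me3 was higher downstream in 0 of 6 for Malat1 and Snhg1, 2 of 6 for Gas5, 6 of 6 for Snhg3 and 5 of 6 for Snhg12. No test was run on these counts.

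**Figure D5:**
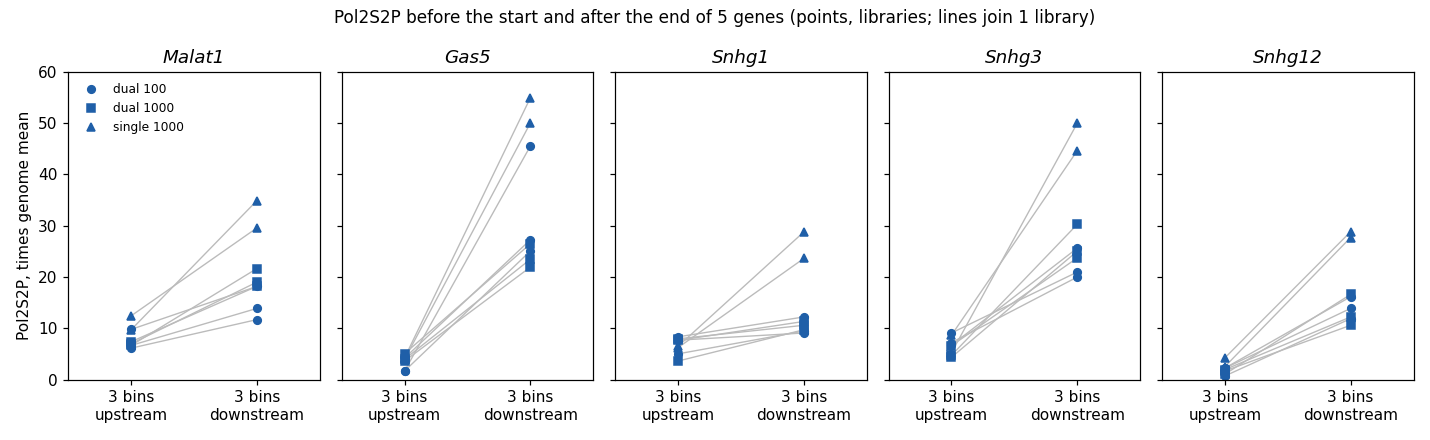
Pol2S2P level in the 3 bins upstream of the start and the 3 bins downstream of the end, as multiples of the genome mean, for 5 genes with a known strand; each line joins the values of 1 of 8 libraries. Every line rises, for example from 6.98 to 19.01 at Malat1 in the first dual library from 1000 cells.

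H3K27ac had its maxima near the starts of some genes and outside others. At 1000 cells the highest bin of the Gas5 window was the start bin, with 25.0 times the genome mean, and the next bin had 24, 33 and 26 reads, or 24.1. In Snhg1 it was the bin of the H3K4me3 peak, with 20, 22 and 26 reads, or 19.8. The Snhg12 window had the lowest of the 6 maxima, 10.2, in the second bin of the gene. Outside the genes, Neat1 had 31.0 in the bin next to its higher-coordinate end, and Malat1 had 25.9 at 19:5809981-5810980, upstream of its start bin with 19.8. The Snhg3 window had its highest level at Rcc1, with 16.7.

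The dual stains were compared with the stain of the same target alone, which sets the levels with and without a second target side by side. CTCF was higher in the dual stain at Malat1, by 0.66 ± 0.14 (adjusted p = 0.00575, edgeR), and at Gas5, by 0.76 ± 0.18 (adjusted p = 0.0149), where 0.24% of 29207 genes were called higher and 0.349% lower. The libraries did not overlap at either gene. Neat1 (0.29, adjusted p = 0.361), Snhg1 (0.39, adjusted p = 0.466), Snhg3 (0.60, adjusted p = 0.298) and Snhg12 (0.34, adjusted p = 0.623) were not called. These calls rest on few libraries. The Malat1 call was lost without dual library 2 (adjusted p = 0.0789) or either single library (0.107 and 0.0578), and the Gas5 call without dual library 2 (0.306) or single library 2 (0.344). By edgeR, 1 of 49 member bins was called, 19:5798981-5799980 in Malat1 at 1.40 ± 0.30 (adjusted p = 0.0208), against 0.0424% of 82620 bins higher and 0.0533% lower, and it was lost when any 1 library was left out. CTCF there averaged 14.3 times the genome mean in the dual and 5.15 in the single stain, and the H3K4me3 read from the same dual cells averaged 109.5. The part of H3K4me3 in that CTCF value was not tested.

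Pol2S2P was lower in the dual than in the single stain at all 6 genes. The differences were −0.72 ± 0.10 at Malat1, −0.30 ± 0.06 at Neat1, −0.67 ± 0.13 at Gas5, −0.89 ± 0.15 at Snhg1, −0.74 ± 0.20 at Snhg3 and −1.24 ± 0.20 at Snhg12, by edgeR, where 26.7% of 25664 genes were called lower and 10.4% higher (15% and 15.8% with TMM). With TMM Neat1 was no longer called (−0.13, adjusted p = 0.107), nor was it with DESeq2 (−0.13, adjusted p = 0.258), which also left out Snhg3 (−0.58, adjusted p = 0.126). TMM moved the median of all genes from −0.160 to 0.00978. Bin by bin the split turned with the scaling: 0 of 91 member bins were higher and 35 lower in the main fit, against 0.795% and 27% of 36611 bins, and 9 were higher and 1 lower with TMM, against 1.98% and 1.06%.

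Between cell numbers no difference at these genes was called. In the comparisons of 10000 with 1000 cells for H3K4me3 and CTCF, of 1000 with 100 for H3K27ac and Pol2S2P, and in the tests of whether a target difference changed with cell number, 0 of 6 members were called by edgeR, TMM or DESeq2. Few genes were: 1.73% for H3K4me3, 0.0229% for CTCF, 0.015% for H3K27ac, 0.0139% for Pol2S2P, and 0.0169% and 0.0043% for the changes of the 2 target differences. At an unadjusted p under 0.05, CTCF values were larger at 10000 cells at 4 members, namely Malat1 (0.39), Gas5 (0.77, adjusted p = 0.157 by edgeR), Snhg3 (0.62) and Snhg12 (0.73), and none of these passed the adjusted threshold. Pol2S2P at Malat1 was higher at 1000 cells by 0.34. The H3K4me3 minus CTCF difference was smaller at 10000 cells at Gas5 (−0.77, adjusted p = 0.28, edgeR), Snhg3 (−0.81) and Snhg12 (−0.68), values that rest on the same CTCF libraries as those just given. For H3K4me3 and H3K27ac 0 members reached that unadjusted p.

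Genes of the same pathways were read from lists chosen by function. Of 21 other noncoding snoRNA hosts, 17 were called higher for H3K4me3 than for CTCF at 10000 cells and 4 lower (41.7% and 31% of all genes), with a median of 2.58 against 0.07 over all genes. Snhg5 (3.26 ± 0.15), Zfas1 (3.22 ± 0.11), Snhg8 (3.17 ± 0.21) and Snhg10 (3.11 ± 0.18) were among those called higher. Of 20 coding genes with snoRNAs in their introns all 20 were higher (median 2.84), among them the ribosomal protein genes Rpl13a (3.15) and Rpl3 (3.11) and the snoRNP gene Nop56 (3.21). All 10 genes for snoRNP core proteins (median 2.36) and all 14 for paraspeckle proteins (median 1.80) were higher, including Sfpq (2.14), whose protein binds Neat1 RNA. Of 17 other long noncoding RNA genes tested, 14 were higher and 3 lower (median 1.53).

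In H3K27ac minus Pol2S2P at 1000 cells, where 13% of all genes were called higher and 27.1% lower, 2 of the 21 noncoding hosts were higher and 6 lower, a share near that of all genes, with a median of −0.34 against −0.18 over all genes, Snhg10 being higher by 1.24 ± 0.35 and Snhg17 lower at −1.05 ± 0.21. The coding hosts had 0 higher and 17 lower of 20 (median −1.004), with Npm1 at −1.80 and Ncl at −1.75, both genes for abundant nucleolar proteins. The paraspeckle genes had 0 higher and 13 lower of 14 (median −0.91), with Sfpq at −1.69 ± 0.11, near the −1.52 of Neat1. The snoRNP core genes had 8 lower of 10 (median −0.93), Nolc1 being at −1.64. TMM moved the median of all genes in this comparison from −0.185 to 0.00992. Pol2S2P was lower in the dual than in the single stain at 16 of the 21 noncoding hosts, with 1 higher, and at 19 of the 20 coding hosts, against 26.7% of all genes lower and 10.4% higher (15% and 15.8% with TMM, for which the lists were not counted).

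Likeness was measured over the mean levels of the 10 groups as the root mean square difference in log2 against 21117 genes with enough reads, and the nearest genes below were taken from outside the 6 members. The 10 groups share libraries of the same cells, and r is given as a description. Outside the members Malat1 was nearest to Eif4a2, a translation factor gene that also hosts snoRNAs, at 0.20 (r = 0.99). Gas5 was nearest to Rpl30, a ribosomal protein gene, at 0.25, and to Snord4a at 0.29. Snhg1 was nearest to the snoRNA entry LOC115488553 at 0.18 and to Snhg4 at 0.23, and Snhg3 to Rpl35a at 0.20 and Phf23 at 0.22. Snhg12 was nearest to the RefSeq entry Gm22980 at 0.22 and to Tuba1b, a tubulin gene, at 0.23. Neat1 had no gene as near: Gm38733, a long noncoding RNA gene, stood at 0.55 and Rnf167 at 0.57. Members were nearer still in some cases: Malat1 and Snhg1 were the nearest pair, at 0.17 (r = 0.99), and Gas5 and Snhg1 stood at 0.20. Neat1 lay 1.07 to 1.24 from the other 5, with r from 0.66 to 0.77.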

How the data were processed

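Raw read counts per 1 kb bin of GRCm38 were analysed as the authors deposited them; bcl2fastq, HISAT2 2.1.0 and deepTools 3.3.1 are named in the submitters' processing notes, and further filters are not given in the sources used here. Of 34 labelled samples, 28 had a matching column; 6 samples were not analysed here, and 4 columns matched no sample and were left out. The members and gene lists were chosen with earlier results of these data known. Library size was the sum over autosomes and X without 9 bins above 50 times the genome mean in every group, and ranged from 719766 to 6653298 counts; this depth limits single bins most. Counts were summed over the bins of each RefSeq gene and fitted over all genes, or over all bins, with edgeR 4.0.16 (quasi-likelihood test, filterByExpr with a minimum count of 10, library-size scaling; R 4.3.3), adjusted over all features at 0.05. Fold changes are log2; SE is the log2 difference over the square root of F, and intervals are 95%. Alternatives were TMM, DESeq2 1.42.0, other filters, spans widened by 1 kb, the replicate block and leaving out each library. Genes are named by membership, by list and by the 2 most alike per member (pseudocount 0.1, at least 10 counts per group). The fits were tested on simulated data. Same-numbered dual libraries were read from the same cells, so numbers pair them; deviations of the pairs correlated at 0.171, 0.147 and 0.113 (H3K27ac and Pol2S2P, 1000 cells), 0.124, 0.132 and 0.131 (100 cells), 0.0897, 0.0715 and 0.0758 (H3K4me3 and CTCF, 1000 cells) and 0.0313, 0.00686 and 0.0624 (10000 cells). The main fits did not use this pairing. The replicate block was also run between dual and single stains and between cell numbers, where an equal number does not mean the same cells. No libraries were identical. Some items are not reported here.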

Additional observations from a re-analysis of the deposited data

How the results depend on the processing

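Of 918 alternative values for the members, 829 kept their direction and call, 24 lost and 9 gained a call, and 56 changed sign, of which 0 were called and the largest was 0.21 in size (log2). With TMM and DESeq2 respectively, the sign changed for H3K27ac minus Pol2S2P at Snhg3 (0.076 and 0.062 at 1000 cells, 0.19 and 0.18 at 100), for H3K4me3 by cell number at Malat1 (−0.023 and −0.022) and Snhg12 (−0.024 and −0.022), and for H3K27ac by cell number at Snhg3 (−0.0034 and −0.0068) and Snhg12 (−0.0036 and −0.0060). Spans widened by 1 kb gave 0.036 for H3K4me3 by cell number at Gas5, −0.16 and −0.061 for H3K27ac at Snhg3 and Snhg12, 0.031 and 0.0038 for the change of H3K4me3 minus CTCF at Neat1 and Snhg1, and 0.013 for that of H3K27ac minus Pol2S2P at Neat1.

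Leaving out 1 library at a time changed the sign of some uncalled differences, with these ranges: H3K27ac minus Pol2S2P at 100 cells, Snhg3 −0.20 to 0.10; H3K4me3 by cell number, Malat1 −0.0016 to 0.087, Gas5 −0.13 to 0.092, Snhg1 −0.024 to 0.19, Snhg12 −0.089 to 0.23; CTCF, Snhg1 −0.00094 to 0.64. For H3K27ac by cell number they were Neat1 −0.062 to 0.21, Snhg1 −0.017 to 0.38, Snhg3 −0.060 to 0.15 and Snhg12 −0.099 to 0.21, and for Pol2S2P Snhg1 −0.21 to 0.21 and Snhg3 −0.060 to 0.25. For the change of H3K4me3 minus CTCF they were Neat1 −0.24 to 0.092 and Snhg1 −0.55 to 0.092, and for that of H3K27ac minus Pol2S2P Neat1 −0.18 to 0.091, Gas5 −0.057 to 0.29, Snhg1 −0.010 to 0.41 and Snhg3 −0.23 to 0.080.

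Members called for H3K27ac against Pol2S2P numbered 3 at 1000 cells and 3 at 100. Widened spans gave 6 and 5, DESeq2 1 at 100 cells, and leaving out 1 library 2 to 4 and 2 to 3. For CTCF dual against single, 2 were called, and 0 to 2 with 1 library left out; DESeq2 gave its adjusted p as NA for all 6. Member bins called moved to 15 with DESeq2 for H3K4me3 against CTCF at 1000 cells (32 to 37 with 1 library left out) and to 24 with a minimum count of 5 for H3K27ac against Pol2S2P at 100 cells (13 to 17). For CTCF dual against single they moved to 0 with DESeq2, with the replicate block and, in each of 5 cases, with 1 library left out. For Pol2S2P dual against single they moved from 35 to 10 with TMM, 1 with DESeq2, 23 with a minimum count of 5, and 9 to 30 with 1 library left out. The cause of these changes was not tested. The replicate block changed 1 call among the members' spans, Snhg1 at 100 cells. Using protein-coding and long noncoding genes alone, an alternative chosen after seeing the data, changed 0 of 72.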
